A study of Homo sapiens with 9 samples.

Results

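The vacuolar proton pump (V-ATPase) is represented here by 10 of its subunit genes: 8 of the cytosolic V1 sector (ATP6V1A, ATP6V1B2, ATP6V1C1, ATP6V1D, ATP6V1E1, ATP6V1F, ATP6V1G1 and ATP6V1H) and 2 of the membrane V0 sector (ATP6V0A1 and ATP6V0D1). They are 10 of the 25382 genes in the count table, were taken by symbol, and all 10 had enough reads to be tested. ATP6V1E1 was picked because it fell with DsiRNA 13.6. Its difference in that comparison is therefore a description without a test, and so is its difference between the DsiRNAs.

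RNA was measured in 501mel, an established human melanoma cell line, 24 h after lipofection of a Dicer-substrate interfering RNA (DsiRNA). The control group received the control DsiRNA NC1, and the other groups received DsiRNA 13.6 or DsiRNA 13.8, both directed against TBX3, a T-box transcription factor. Each group had 3 libraries, named biological replicates in the labels, and all groups share the cell line, the medium and the transfection method. The labels do not say whether replicates were separate cultures, so the p-values measure the spread between these libraries. No sequence of either DsiRNA is given in the sources used here. Untransfected cells were not analysed here.

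The V-ATPase is a rotary motor that spends ATP to push protons into endosomes, lysosomes, secretory vesicles and melanosomes. In V1, the A and B subunits form the ATP-splitting ring, D and F form the central rotor, and E and G form the peripheral stalks, which together with C and H hold the ring against the membrane sector. In V0, subunit a carries the proton path past a ring of c subunits, and subunit d couples the rotor to that ring. V1 and V0 can come apart and rejoin, which switches the pump off and on. In pigment cells the pH of the melanosome affects the activity of tyrosinase, so the pump is part of the machinery that sets pigment synthesis.

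Libraries held 38105026 to 52272147 counted reads. Levels are read counts scaled to library size by TMM, in CPM. Differences are log2 fold changes with a standard error (SE) derived from the F statistic of edgeR's quasi-likelihood test. A gene was called when the Benjamini-Hochberg adjusted p of that test over all 14731 tested genes was under 0.05. TBX3 had 88.6, 83.8 and 84.0 CPM in the control libraries, 46.4, 41.0 and 39.4 CPM with 13.6, and 36.1, 33.7 and 36.2 CPM with 13.8. Its log2 fold change was -1.02 ± 0.07 (SE) with 13.6 and -1.27 ± 0.07 with 13.8 (edgeR adjusted p = 1.27e-07 and 1.03e-08). The 8 melanocytic markers summed to 13400 to 15400 CPM in the controls, 13800 to 15000 CPM with 13.6 and 17400 to 18200 CPM with 13.8, with 0 of 8 at 0. The 5 fibroblast markers summed to 4.43 to 5.98 CPM in the controls, 3.93 to 5.07 CPM with 13.6 and 14.8 to 17.9 CPM with 13.8, none of them at 0 in any group. Both marker sums were thus higher in all 13.8 libraries, beside the differences of the pump genes in that group, and their part in those differences was not tested. The sum does not say how many of the melanocytic markers rose with 13.8. Their median level was 572 CPM per marker in the controls, 766 with 13.6 and 579 with 13.8, which does not say it either. MITF, 1 of the 8, went against the sum, from a mean of 792 CPM in the controls to 403 CPM with 13.8. The other melanocytic markers are not given singly here. In bulk RNA, fewer cells of a type and less RNA per cell cannot be told apart.

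With 13.6, the level of ATP6V1E1 was 7.72-fold lower than in the controls, while the other 9 subunits moved by at most 0.38 on the log2 scale. Of those 9, 5 were called lower with 13.6, where 25.0% of all tested genes were. With 13.8, 7 of the 10 subunits fell, most of all ATP6V1C1 and ATP6V1D, against 27.9% of all genes, and ATP6V0A1 rose. The 7 include ATP6V1E1, which was picked on the same control libraries, and 6 of the 9 others fell. Between the DsiRNAs, 6 of the 9 subunits other than ATP6V1E1 were higher with 13.6 than with 13.8, against 30.9% of all genes.

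ATP6V1E1 encodes the E subunit of the peripheral stalks (chr22:17592136-17628818, minus strand, GRCh38). Its level was 349, 346 and 388 CPM in the controls, 46.7, 45.7 and 47.9 CPM with 13.6, and 242, 267 and 254 CPM with 13.8. The 3 groups did not overlap: all 13.6 libraries lay far below all others, and the 13.8 libraries lay between them and the controls. The 13.6 libraries were also close to each other, with a coefficient of variation of 2.35%, and their level rested on 6227 reads in all, against 45304 in the controls. The difference with 13.6 was -2.95 ± 0.07 on the log2 scale, or -87.0%. The difference with 13.8 was -0.50 ± 0.06 (edgeR adjusted p = 1.63e-05), a test on 13.8 libraries that did not serve to pick the gene, against control libraries that did. Between the DsiRNAs the difference was -2.44 ± 0.07.

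**Figure D1:**
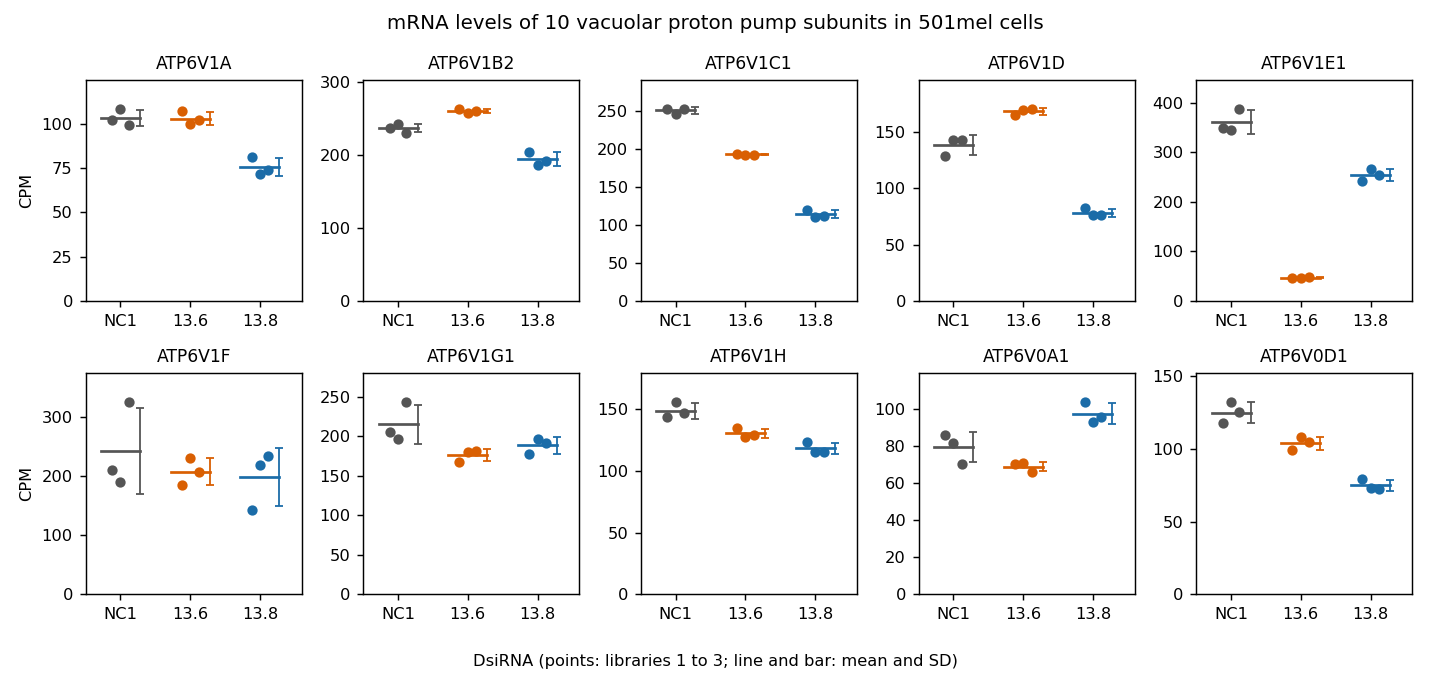
mRNA levels in CPM (vertical axis, from 0) of the 10 subunits in the control (NC1), 13.6 and 13.8 libraries (horizontal axis); points are libraries, lines are group means and bars are SDs of 3 libraries. ATP6V1E1 is near 47 CPM with 13.6 against 346 to 388 CPM in the controls, and ATP6V1F spreads widely within each group.

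The catalytic ring was measured through ATP6V1A, the subunit that splits ATP (chr3:113747019-113812056, plus strand), and ATP6V1B2, the B subunit found in most tissues (chr8:20197367-20226819, plus strand). ATP6V1A had 102, 109 and 99.5 CPM in the controls, 107, 99.9 and 102 CPM with 13.6, and 81.4, 71.8 and 73.9 CPM with 13.8. Its 13.6 libraries overlapped the controls (-0.01 ± 0.06, 95% interval -0.13 to 0.12, edgeR adjusted p = 0.937), and its 13.8 libraries were all lower (-0.45 ± 0.07, edgeR adjusted p = 6.02e-05). ATP6V1B2 had 237.5, 242 and 231 CPM in the controls, 264, 257 and 261 CPM with 13.6, and 205, 187 and 192 CPM with 13.8. All 13.6 libraries lay above the controls without passing the test (0.14 ± 0.06, edgeR adjusted p = 0.0554, but 0.0411 without 13.8 replicate 1, which enters the estimate of the spread), and with 13.8 the gene fell (-0.28 ± 0.06, edgeR adjusted p = 0.000735). Both ring subunits were higher with 13.6 than with 13.8, by 0.44 ± 0.07 and 0.42 ± 0.06 (edgeR adjusted p = 5.71e-05 and 2.3e-05).

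The rotor subunits behaved differently from each other. ATP6V1D (chr14:67294371-67360265, minus strand) had 128.5, 143.5 and 143.5 CPM in the controls, 165, 169.6 and 171 CPM with 13.6, and 82.7, 76.2 and 76.1 CPM with 13.8. The groups did not overlap, and the DsiRNA groups lay on opposite sides of the controls: ATP6V1D rose with 13.6 by 0.28 ± 0.06 (edgeR adjusted p = 0.00195) and fell with 13.8 by 0.82 ± 0.06 (edgeR adjusted p = 1.68e-07). The difference between the DsiRNAs, 1.11 ± 0.06, was the largest among the 9 subunits other than ATP6V1E1 (edgeR adjusted p = 1.07e-08). ATP6V1F, its partner in the rotor (chr7:128862826-128865844, plus strand), had 211, 191 and 325 CPM in the controls, 185, 229.9 and 207 CPM with 13.6, and 143, 219 and 235 CPM with 13.8. Its libraries overlapped in every comparison, and its replicates spread more than those of any other member, with a coefficient of variation of 30% in the controls and 24.8% with 13.8. No difference of ATP6V1F passed the test: -0.22 ± 0.21 with 13.6 (95% interval -0.63 to 0.18, edgeR adjusted p = 0.397) and -0.28 ± 0.21 with 13.8 (95% interval -0.69 to 0.12, edgeR adjusted p = 0.267). The value with 13.8 ran from -0.43 without control replicate 2 to -0.02 without control replicate 3, and was -0.09 without 13.8 replicate 1. Between the DsiRNAs it differed by 0.06 ± 0.21 (edgeR adjusted p = 0.814).

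Among the other subunits that brace the ring, ATP6V1C1 had the largest differences from control. It encodes subunit C, which links the stalks to subunit a and leaves the complex when V1 detaches (chr8:103021063-103073051, plus strand). It had 252.6, 245 and 252.5 CPM in the controls, 193, 192 and 192 CPM with 13.6, and 119.9, 110.2 and 112 CPM with 13.8. The 3 groups were apart and tight, and the gene fell with both DsiRNAs, by 0.38 ± 0.05 with 13.6 (edgeR adjusted p = 7e-05) and by 1.13 ± 0.05 with 13.8 (edgeR adjusted p = 3.07e-09). With 13.8 it fell by 54.4%, the largest fall of any member in that comparison, and the DsiRNAs differed by 0.76 ± 0.05 (edgeR adjusted p = 8.47e-08).

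ATP6V1G1, the G subunit that pairs with E in each stalk (chr9:114587746-114598373, plus strand), had 205.5, 197 and 243 CPM in the controls, 168, 179.8 and 181 CPM with 13.6, and 177, 197 and 192 CPM with 13.8. All 13.6 libraries lay below the controls (-0.29 ± 0.08, edgeR adjusted p = 0.00783), whereas the 13.8 libraries overlapped them (-0.19 ± 0.08, 95% interval -0.34 to -0.04, edgeR adjusted p = 0.0549). Without control replicate 1 or 2 the value with 13.8 passed the test (adjusted p = 0.0427 and 0.0231), and without control replicate 3 it was -0.095 (adjusted p = 0.228). The DsiRNAs did not differ past the threshold in ATP6V1G1 (-0.10 ± 0.08, 95% interval -0.25 to 0.05, edgeR adjusted p = 0.287). The fall of ATP6V1G1 with 13.6, by 18.2%, was thus far smaller than that of ATP6V1E1, its partner in the stalk. ATP6V1H, a regulatory subunit that blocks ATP use by free V1 (chr8:53715557-53843558, minus strand), had 143, 155 and 146 CPM in the controls, 134, 127.5 and 128.5 CPM with 13.6, and 123, 115 and 115 CPM with 13.8. Both DsiRNA groups lay below the controls, by -0.19 ± 0.06 with 13.6 (edgeR adjusted p = 0.0156) and -0.33 ± 0.06 with 13.8 (edgeR adjusted p = 0.000305). The call with 13.6 was lost without control replicate 2 (adjusted p = 0.0578), 13.6 replicate 2 (0.0626) or 13.6 replicate 3 (0.054), and the difference between the DsiRNAs (0.14 ± 0.06, edgeR adjusted p = 0.0482) was lost without any 1 of the 13.6 libraries (adjusted p = 0.147, 0.0659 and 0.0885 for replicates 1 to 3) and without 13.8 replicate 2 or 3 (0.13 and 0.132), as well as with library totals (0.178), no filter (0.0503) or a mean of at least 50 reads (0.091).

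The V0 members moved in opposite directions with 13.8. ATP6V0A1, one of the interchangeable a subunits, which also steer the pump to particular membranes (chr17:42458844-42522611, plus strand), had 86.3, 81.85 and 70.35 CPM in the controls, 70.3, 70.8 and 66.0 CPM with 13.6, and 103.8, 93.0 and 95.9 CPM with 13.8. It was the only member that rose with 13.8 (0.30 ± 0.08, edgeR adjusted p = 0.0054), with all 13.8 libraries above all controls. With 13.6 it was called lower (-0.20 ± 0.08, edgeR adjusted p = 0.0422), although 1 control library overlapped the 13.6 libraries and the call was lost without control replicate 1 or 2 (adjusted p = 0.16 and 0.109), any 1 of the 13.6 libraries (0.0745, 0.0717 and 0.143 for replicates 1 to 3) or 13.8 replicate 3 (0.0565), and with only the 2 groups compared (0.0636). ATP6V0A1 was lower with 13.6 than with 13.8 by -0.50 ± 0.08 (edgeR adjusted p = 9.08e-05), the reverse of most other members. ATP6V0D1, the d subunit of the rotor coupling (chr16:67438014-67481237, minus strand), had 118, 132 and 125 CPM in the controls, 99.15, 108 and 104.5 CPM with 13.6, and 79.6, 72.9 and 72.55 CPM with 13.8. Its groups did not overlap, and it fell with both DsiRNAs, by 0.27 ± 0.07 with 13.6 (edgeR adjusted p = 0.00404) and by 0.74 ± 0.07 with 13.8 (edgeR adjusted p = 6.97e-07), with a difference of 0.47 ± 0.07 between them (edgeR adjusted p = 3.72e-05).

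**Figure D2:**
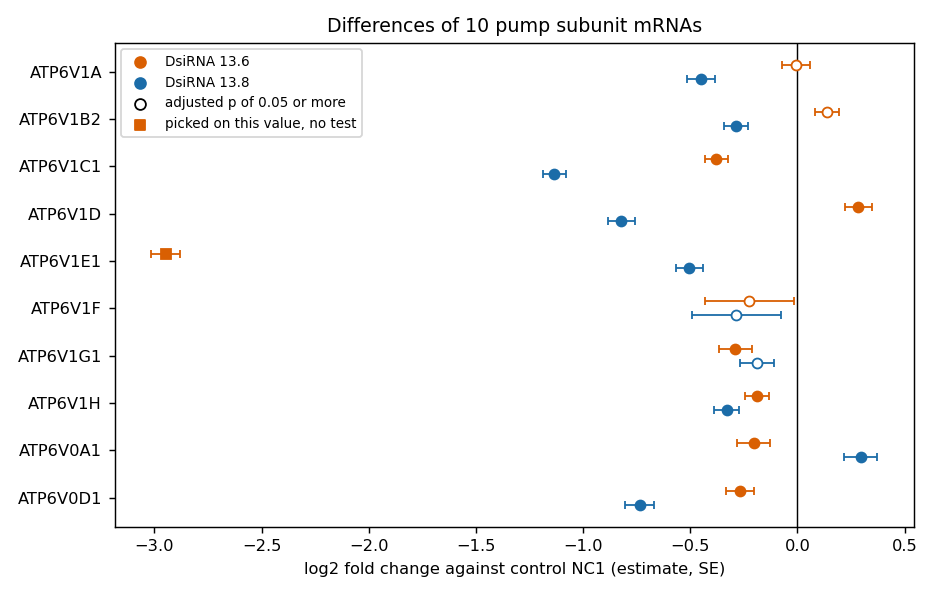
Log2 fold change against control (horizontal axis) of the 10 subunits with 13.6 (orange) and 13.8 (blue); points are estimates of the edgeR fit over 9 libraries, bars are SEs, open points did not pass the test, and the square is the value on which ATP6V1E1 was picked. Apart from ATP6V1E1 at -2.95, the 13.6 values lie between -0.38 and 0.28, and the 13.8 values between -1.13 and 0.30.

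Counted over the members, 13.6 gave 1 higher, 5 lower and 3 not past the test among the 9 other than ATP6V1E1, with a median of -0.20. Of all tested genes, 49.9% were called in that comparison, 24.9% higher and 25.0% lower, and their median was -0.01. Without control replicate 2, 13.6 replicate 2 or 13.6 replicate 3, 3 and not 5 of the 9 were lower. In 6 of these 9 members the 13.6 and control libraries did not overlap, as in 56.0% of all tested genes. With 13.8, 1 of the 10 members was higher, 7 were lower and 2 did not pass, with a median of -0.39, against 55.5% of all genes called, 27.5% higher and 27.9% lower, and a median of 0.01. Without ATP6V1E1, 6 of the 9 were lower with 13.8, with a median of -0.33. In 8 of the 10 the libraries did not overlap, as in 59.1% of all genes. Between 13.6 and 13.8, 6 of the 9 were higher, 1 was lower and 2 did not pass, with a median of 0.42, against 61.1% of all genes called, 30.9% higher and 30.2% lower, and a median of -0.02. In 7 of these 9 the libraries did not overlap, as in 68.8% of all genes. The comparisons with control share the control libraries. Since so many genes were called, a call or a lack of overlap alone does not set a subunit apart. The median size of the difference over all genes was 0.31 with 13.6 and 0.35 with 13.8, which the 13.6 values of ATP6V1C1 and ATP6V1E1 and the 13.8 values of ATP6V1C1, ATP6V1D, ATP6V0D1, ATP6V1E1 and ATP6V1A exceeded.

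Divided by the length of the principal transcript, the order of the subunit mRNAs in the controls was led by ATP6V1F (344 CPM per kb ± 103, SD, n = 3), whose libraries overlapped those of ATP6V1E1 in the next place (257.5 ± 16.9 CPM per kb). ATP6V1G1 followed with 199 ± 22.9 CPM per kb and ATP6V1B2 with 82.4 ± 1.99 CPM per kb, each apart from its neighbours. ATP6V1D (75.1 ± 4.69 CPM per kb), ATP6V1H (73.9 ± 3.19 CPM per kb) and ATP6V0D1 (72.9 ± 4.26 CPM per kb) could not be told apart by their libraries. ATP6V1C1 (44.6 ± 0.746 CPM per kb), ATP6V0A1 (26.3 ± 2.72 CPM per kb) and ATP6V1A (22.5 ± 1.02 CPM per kb) came last, and the libraries of the last pair overlapped. ATP6V1F, ATP6V1E1 and ATP6V1G1 thus had more mRNA per length than ATP6V1B2 and ATP6V1A of the catalytic ring. With 13.8, ATP6V1E1 kept rank 2 at 182 ± 8.95 CPM per kb, where its libraries overlapped those of ATP6V1G1. With 13.6 it stood at rank 8 with 33.4 ± 0.786 CPM per kb, between ATP6V1C1 and ATP6V0A1. With the length of all exons of a gene in place of the transcript, an alternative chosen after seeing the data, ATP6V1E1 had rank 3 in the controls and with 13.8, and rank 8 with 13.6. ATP6V1F and ATP6V1G1 then led, but the order below changed: in the controls ATP6V1C1 moved from rank 8 to 4 (42.8 CPM per kb), ATP6V0D1 from 7 to 9 (15.2 CPM per kb) and ATP6V1A from 10 to 8 (20.2 CPM per kb), so the lower ranks depend on the length used.

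The balance within V1 moved accordingly. Set against the mean of the 7 other V1 members per kb, ATP6V1E1 had a ratio of 2.23, 2.27 and 1.97 in the control libraries, 0.322, 0.288 and 0.312 with 13.6, and 2.07, 1.93 and 1.78 with 13.8. The 13.6 libraries were far below the other 6, and 2 of the 3 libraries with 13.8 were below every control. This mean is weighted towards ATP6V1F, the subunit with the highest level per kb and the widest spread.

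**Figure D3:**
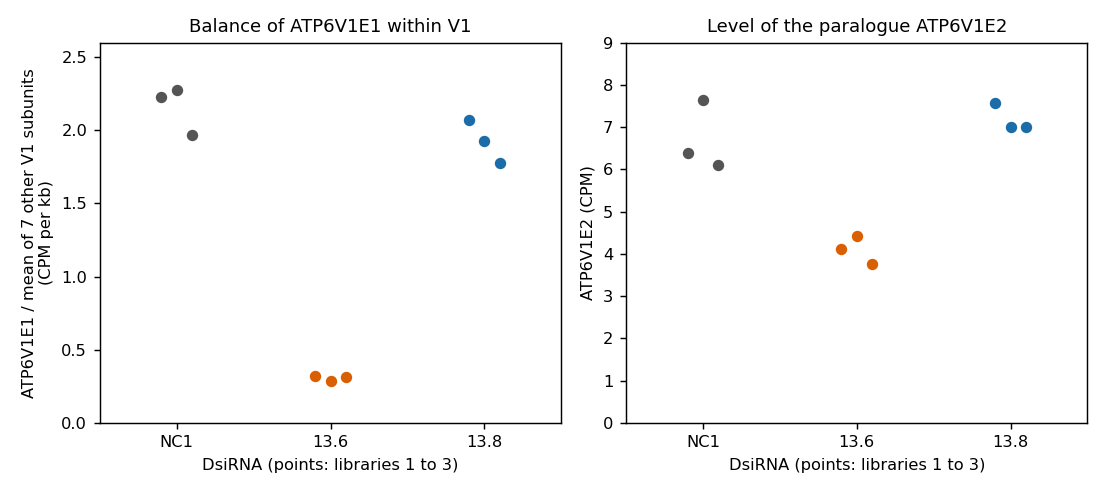
Left, ratio of ATP6V1E1 to the mean of the 7 other V1 members (both in CPM per kb) and right, CPM of its paralogue ATP6V1E2, each in the 3 libraries (points) of the control (NC1), 13.6 and 13.8 groups. The ratio is 0.288 to 0.322 with 13.6 and 1.78 to 2.27 in the other libraries, and ATP6V1E2 is also lowest with 13.6.

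Several subunits have paralogues that are restricted to a few tissues, and these were low in 501mel cells. ATP6V1E2, the E subunit known from testis, had 6.71 ± 0.817 CPM in the controls (SD, n = 3), 4.10 ± 0.330 CPM with 13.6 and 7.19 ± 0.328 CPM with 13.8. It fell with 13.6 (-0.71 ± 0.12, edgeR adjusted p = 0.000332) and did not pass the test with 13.8 (0.10 ± 0.12, edgeR adjusted p = 0.494). Its share of the summed E subunit mRNA per kb was 1.31% ± 0.220 in the controls, 5.85% ± 0.572 with 13.6 and 1.97% ± 0.178 with 13.8, so the higher share with 13.6 went with a lower level of the paralogue itself. ATP6V1C2, the C subunit of some epithelia, was called higher with both DsiRNAs, from 68 reads in all control libraries to 340 with 13.6 and 204 with 13.8 (2.26 ± 0.50 and 1.35 ± 0.52, edgeR adjusted p = 0.00266 and 0.0431). Of the 204 reads with 13.8, 116 came from replicate 1, and without it the value was 0.68 ± 0.44 (adjusted p = 0.215). The call with 13.8 was also lost without any 1 of the control libraries (adjusted p = 0.0695, 0.116 and 0.0923 for replicates 1 to 3), whereas that with 13.6 held without any 1 of the 9 libraries. ATP6V1C2 stayed at 2.39% ± 1.26 (13.6) and 2.10% ± 1.24 (13.8) of the summed C subunit mRNA per kb, against 0.385% ± 0.0723 in the controls. ATP6V1B1, the kidney B subunit, and ATP6V1G2, the neuronal G subunit, did not pass the test against control with either DsiRNA. ATP6V1G3 had 0 reads in the controls, 1 with 13.6 and 6 with 13.8 and was not tested.

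Of the other V0 subunits, ATP6V0C, the carrier of the protons, and the a subunits ATP6V0A2 and TCIRG1 were among those lower with 13.6. With 13.6, 6 of the 8 were lower, 1 was higher and 1 did not pass, with a median of -0.59, against 25.0% of all genes lower and 24.9% higher. The 6 include ATP6V0D2, which had very few reads. With 13.8, 2 were lower, 1 was higher and 5 did not pass, with a median of -0.13, against 27.9% of all genes lower and 27.5% higher. These counts were not tested against each other. ATP6V0C, the main subunit of the c ring, had 236, 228 and 213 CPM in the controls, 131, 139 and 126 CPM with 13.6, and 192, 182 and 178 CPM with 13.8. Its groups did not overlap, and it fell by 0.77 ± 0.06 with 13.6 (edgeR adjusted p = 4.16e-07), more than any member other than ATP6V1E1, and by 0.29 ± 0.06 with 13.8 (edgeR adjusted p = 0.00124). ATP6V0B, the other subunit of the ring, also spread widely, with a coefficient of variation of 19.3% in the controls, and did not pass the test with 13.6 (-0.10 ± 0.14, edgeR adjusted p = 0.588) or 13.8 (-0.23 ± 0.14, edgeR adjusted p = 0.181).

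The a subunits were all called lower with 13.6, but went different ways with 13.8. Besides ATP6V0A1, whose values stand above, ATP6V0A2, known from the Golgi, had 38.2 ± 3.05 CPM in the controls and fell with both DsiRNAs (-0.42 ± 0.07 and -0.59 ± 0.07, edgeR adjusted p = 0.00032 and 1.42e-05). TCIRG1, the a subunit of osteoclasts and lysosomes, had 31.2 ± 2.39 CPM and fell with 13.6 (-0.44 ± 0.08, edgeR adjusted p = 0.000466), but did not pass the test with 13.8 (0.01 ± 0.08, 95% interval -0.15 to 0.16, edgeR adjusted p = 0.944). ATP6V0A4, the kidney form, had 7.59 ± 2.11 CPM and fell with 13.6 (-1.13 ± 0.17, edgeR adjusted p = 0.000127). With 13.8 it gave -0.03 ± 0.16 (edgeR adjusted p = 0.882). ATP6V0E1, the small e subunit, rose with both DsiRNAs (0.46 ± 0.08 and 0.51 ± 0.08, edgeR adjusted p = 0.000272 and 8.6e-05). Its paralogue ATP6V0E2 fell with 13.6 (-0.73 ± 0.09, edgeR adjusted p = 2.44e-05) and gave 0.06 ± 0.09 with 13.8 (edgeR adjusted p = 0.592). ATP6V0E2 overlaps the antisense gene ATP6V0E2-AS1, which also fell with 13.6 (-0.54 ± 0.09, edgeR adjusted p = 0.000362). Unlike ATP6V0E2, the antisense gene was called lower with 13.8 too (-0.27 ± 0.09, edgeR adjusted p = 0.0233). Whether the counting used strand is not given in the sources used here. ATP6V0D2, the osteoclast d subunit, had 36, 6 and 14 reads in the 3 groups, too few to describe further.

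**Figure D4:**
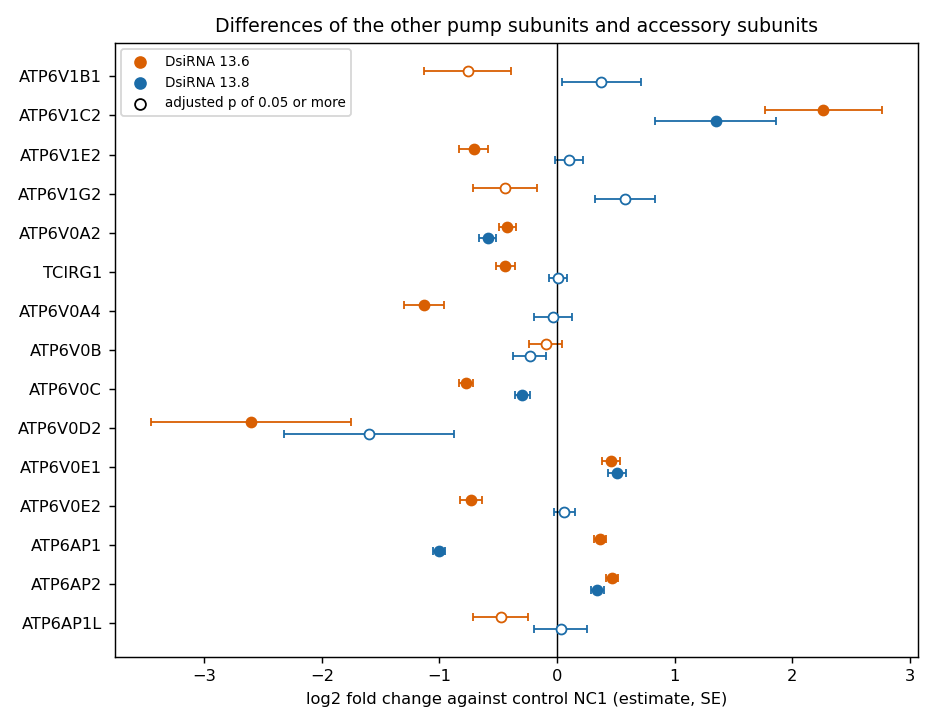
Log2 fold change against control (horizontal axis) of the other V1, V0 and accessory subunits with 13.6 (orange) and 13.8 (blue); points are edgeR estimates over 9 libraries, bars are SEs and open points did not pass the test. ATP6AP1 is 0.37 with 13.6 and -1.004 with 13.8, and ATP6V0E1 is higher with both.

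Of the accessory subunits, ATP6AP1, which helps V0 assemble, lay on opposite sides of the controls with the DsiRNAs, as ATP6V1D did. It had 189, 189.7 and 191 CPM in the controls, 241, 253 and 240.0 CPM with 13.6, and 92.9, 98.3 and 92.7 CPM with 13.8. All 13.6 libraries lay above and all 13.8 libraries below the controls, with 0.37 ± 0.05 and -1.004 ± 0.054 (edgeR adjusted p = 8.17e-05 and 7.31e-09), and a difference of 1.37 ± 0.05 between them (edgeR adjusted p = 5.57e-10). ATP6AP2, also known as the prorenin receptor, rose with both (0.47 ± 0.05 and 0.34 ± 0.05, edgeR adjusted p = 1.18e-05 and 0.000137).

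The wider list of 56 pump genes, none of them among the 10 members, held these subunits together with assembly factors, regulators of V1 and V0 joining, ion carriers of the same organelles, the nutrient-sensing dock on the lysosome and the MITF and TFE factors. Of its 52 tested genes, 14 were higher and 16 lower with 13.6, 14 higher and 12 lower with 13.8, and 11 higher and 22 lower in 13.6 against 13.8. Over all genes 49.9%, 55.5% and 61.1% were called in these comparisons, so the list was called about as often as genes at large. By direction, 24.9% of all genes were higher and 25.0% lower with 13.6, and 27.5% and 27.9% with 13.8. In 13.6 against 13.8 these shares were 30.9% and 30.2%, whereas the list had more genes lower than higher, which was not tested. Its median was -0.10, 0.05 and -0.11, so the lower median of the members with 13.8 did not extend to this list as a whole. Of the assembly factors of the endoplasmic reticulum, VMA21 rose with both DsiRNAs (0.39 ± 0.06 and 0.42 ± 0.06) and TMEM199 fell with both (-0.34 ± 0.06 and -0.53 ± 0.06). OXR1, whose TLDc domain is known to act on V1 release, rose with 13.6 (0.34 ± 0.06) and fell with 13.8 (-0.67 ± 0.06), again in the direction of ATP6V1D. Other regulators of V1 and V0 joining went other ways. TLDC1 rose with both DsiRNAs (0.44 ± 0.10 and 0.71 ± 0.10). DMXL2 fell with 13.6 (-0.51 ± 0.10) and gave -0.12 ± 0.10 with 13.8, not past the test. OSTM1, partner of the lysosomal chloride carrier CLCN7, gave 0.09 ± 0.07 with 13.6, not past the test, and fell by 1.14 ± 0.07 with 13.8. MCOLN1, a calcium channel of lysosomes, gave -0.12 ± 0.06 with 13.6, not past the test, and fell by 0.88 ± 0.06 with 13.8. The endosomal chloride carrier CLCN5 fell with 13.6 (-0.88 ± 0.08) and rose with 13.8 (0.61 ± 0.08), and the channel TPCN1 rose with both (0.31 ± 0.07 and 1.14 ± 0.07). On the nutrient dock, which V-ATPase contacts, RRAGD rose with both DsiRNAs (0.53 ± 0.05 and 0.57 ± 0.05) and SLC38A9, an arginine sensor, fell with both (-0.68 ± 0.08 and -0.24 ± 0.08).

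MITF and TFEB are transcription factors known to bind the motif CACGTG in promoters of lysosomal and pump genes. MITF had 792 ± 115 CPM in the controls, 768 ± 38.7 CPM with 13.6 and 403 ± 55.6 CPM with 13.8. It did not pass the test with 13.6 (-0.04 ± 0.11, edgeR adjusted p = 0.759) and fell with 13.8 (-0.97 ± 0.11, edgeR adjusted p = 7.09e-06). TFEB was higher with 13.6 (0.33 ± 0.11, edgeR adjusted p = 0.0249) and lower with 13.8 (-0.46 ± 0.11, edgeR adjusted p = 0.00412). TFE3 fell with 13.6 (-0.31 ± 0.06, edgeR adjusted p = 0.000723) and gave 0.02 ± 0.06 with 13.8 (edgeR adjusted p = 0.751). MITF and TFEB were thus lower in the same group in which 7 members were lower, and no test links these values.

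The promoter table of RefSeq (GRCh38.p14, 250 bases before to 50 after each start) held 6 of the 10 members: ATP6V1D, ATP6V1E1, ATP6V1F, ATP6V1G1, ATP6V0A1 and ATP6V0D1. CACGTG, which reads the same on both strands, was in 2 of these 6, against 12.5% of 10476 genes, and in 12 of the 45 wider-list genes in the table. The 80 bases before the RefSeq start of these members, and of MCOLN1 with 2 matches, show where the word lies. CACGTG is in capitals.

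ATP6V1G1: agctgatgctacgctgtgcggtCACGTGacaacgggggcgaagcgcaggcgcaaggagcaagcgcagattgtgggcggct

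ATP6V0D1: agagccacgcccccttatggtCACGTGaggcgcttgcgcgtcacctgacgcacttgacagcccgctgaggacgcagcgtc

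MCOLN1: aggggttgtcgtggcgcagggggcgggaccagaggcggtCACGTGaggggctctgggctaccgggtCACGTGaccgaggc

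These windows lie at chr9:114587689-114587768 (plus strand), chr16:67481158-67481237 (minus strand) and chr19:7522544-7522623 (plus strand). The gene places given above come from GENCODE v29, whose starts differ from those of RefSeq. By those places the ATP6V0D1 window lies within the gene and the ATP6V1G1 window runs past the start. With 13.8, the genes with these windows had log2 fold changes of -0.19 (not past the test), -0.74 and -0.88. ATP6V0B, with 2 matches and no window shown, gave -0.23 (not past the test). Of the other wider-list genes with the word, RRAGB (0.31), LAMTOR1 (0.34) and CLCN5 (0.61) rose with 13.8 and RRAGC (-0.36) fell. CLCN6, CLCN7, TM9SF4, LAMTOR4 and ATP6V0E2 did not pass, and CLCN4 was not tested. ATP6V1D, at -0.82 with 13.8, had no CACGTG in its window, which says only that these letters are not there.

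Short interfering RNAs can also lower mRNAs that pair with a few bases of the guide, usually in the 3′ UTR. An earlier search of these same libraries named the 7-base words GCTCTGT for genes that fell with 13.6 and AACTGTC for genes that fell with 13.8. Because the words were chosen on these data and not on the DsiRNA sequences, the matches here are a description and support nothing. On the sense strand of the principal transcripts (GENCODE v29, GRCh38), 18.4% of 12469 3′ UTRs held GCTCTGT and 9.91% held AACTGTC. Among the members, GCTCTGT was in ATP6V1E1 and ATP6V1C1, and AACTGTC was in none. Among all 23 subunit genes, GCTCTGT was also in ATP6V0A2, ATP6V0C and ATP6V0E2, and AACTGTC in ATP6V0D2. The windows around GCTCTGT are shown for ATP6V1E1 and the 3 subunit genes outside the members that hold it, and that around AACTGTC for ATP6AP1, an accessory subunit. The window of ATP6V1C1 is not shown. The word is in capitals.

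ATP6V1E1: ccccagtattGCTCTGTatttatcagc

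ATP6V0C: cccctagagtGCTCTGTgtatgcggat

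ATP6V0A2: gctgaatgctGCTCTGTttctggaatg

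ATP6V0E2: ctggccctggGCTCTGTgctagggatg

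ATP6AP1: agtactacttAACTGTCtgtcctgctt

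They lie at chr22:17592547-17592573 (minus strand), chr16:2519974-2520000, chr12:123760824-123760850, chr7:149880218-149880244 and chrX:154436282-154436308 (all plus strand). In ATP6V1E1 the word starts at base 111 of a 3′ UTR of 538 bases. With 13.6, ATP6V1C1, ATP6V0A2, ATP6V0C and ATP6V0E2 were lower, a direction that the choice of the word favours. Of the 17 tested subunit genes without the word, 8 were lower, 3 were higher and 6 did not pass. Of all tested genes, 25.0% were lower and 24.9% higher with 13.6. Among the tested genes of the wider list that are no subunits, GCTCTGT was in VMA21, TPCN1 and RRAGC, which rose with 13.6, in WDR7, which fell, and in TBC1D24, which did not pass. AACTGTC was in ATP6AP1, which fell with 13.8, in RRAGD, which rose, and in WDR7, which did not pass. Whether either DsiRNA acts on these mRNAs was not tested. The longest run of bases that the ATP6V1E1 transcript shares with the 2 TBX3 transcripts was 11 on the same strand. The other members share 11 to 13 there. On the opposite strand the run was 11 for ATP6V1E1 and 11 to 19 for the other members, longest for ATP6V1A.

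The 5 genes whose levels ran most like that of ATP6V1E1 over the 9 libraries, out of 10693 genes that averaged 5 CPM or more, were HMGN4, PRKAG1, AASDHPPT, TIFA and CTSA, with Pearson r of 0.995 to 0.997 on the log2 CPM scale. The 9 points share their library depth and fall into 3 groups, so r mostly reflects the low 13.6 group. HMGN4, a nucleosome-binding protein, had 91.6 ± 4.15, 39.3 ± 1.81 and 81.1 ± 3.50 CPM in the control, 13.6 and 13.8 groups. PRKAG1, a subunit of the energy sensor AMPK, had 98.9 ± 4.39, 56.8 ± 1.20 and 91.6 ± 1.18 CPM in the same order. CTSA, a lysosomal carboxypeptidase, had 304 ± 8.83, 147 ± 1.07 and 284.5 ± 2.91 CPM. Each was lowest with 13.6 and closer to control with 13.8, as ATP6V1E1 was, a likeness that follows from how they were chosen. None fell as far as ATP6V1E1: their differences with 13.6 ran from -1.31 (TIFA) to -0.80 (PRKAG1). No other member was among them. Across the 9 libraries the correlation of ATP6V1E1 with the other members ran from -0.63 (ATP6V1B2) to 0.71 (ATP6V1G1), whereas ATP6V1C1 and ATP6V0D1 had 0.98 with each other, all of them descriptions over the same 9 libraries.

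Pseudogenes can share reads with their parent genes. The annotation (GENCODE v29) names 1 pseudogene of ATP6V1E1, 5 of ATP6V1G1 and none of the other members, and no row of the count table carries these names. Reads that fit a pseudogene as well as its parent may have been dropped or kept in the counts of ATP6V1E1 and ATP6V1G1, so their levels are less certain than those of the other members.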

How the data were processed

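Total RNA of 9 libraries was counted by the authors. The submitters' processing notes name the build hg19 and the tools STAR, HTSeq, cutadapt, FastQC and DESeq2. For versions, annotation and strand setting, nothing is given in the sources used here. The authors deposited unnormalized whole-number counts, a row per symbol. The authors' second deposited table, log2 normalized values, was used only for a check: it gave back the counts within 0.00204 of a read over 25378 genes. Of 25398 rows, 16 repeats of a symbol were dropped, and 28 date-like names (0.2% of reads) stayed in the totals.

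Counts were fitted in R 4.3.3 with edgeR 4.0.16: filterByExpr (minimum count 10, 14731 genes, 99.97% of reads), TMM, a robust quasi-likelihood fit over all 9 libraries with 1 mean per group, 6 residual degrees of freedom, and 3 two-sided contrasts. The script was tested on simulated data. Intervals are 95% (normal, from the SE), unadjusted. Alternatives used DESeq2 1.42.0 and limma 3.58.1. Places and 3′ UTRs come from GENCODE v29 (GRCh38), not the build of the counts.

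The members and lists were chosen with earlier results of these data known. Named are all members, TBX3, the other subunits, up to 3 called genes with the smallest adjusted p per list and comparison, and the 5 genes most like ATP6V1E1. OSTM1 and MCOLN1 with 13.6, MITF with 13.6, TFE3 with 13.8 and DMXL2 with 13.8 are given as the counterpart of a called value. WDR7, TBC1D24 and the wider-list genes with CACGTG are given because they hold a word searched. Keratinocyte markers summed to 39.3 to 46.2 CPM over all libraries, with 1 or 2 of the 4 at 0 in each group. Leukocyte markers summed to 0.823 to 1.42 (control), 1.21 to 1.75 (13.6) and 1.58 to 2.05 CPM (13.8), and endothelial markers to 0.962 to 1.23, 0.44 to 0.679 and 0.836 to 1.16 CPM; their part in the results was not tested.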

Additional observations from a re-analysis of the deposited data

How the results depend on the processing

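Results were recomputed under 17 alternatives: DESeq2, limma-voom, DESeq2 size factors, library totals, no filter, a mean of at least 50 reads, only the 2 groups compared, the replicate block, and each library left out. The difference of ATP6V1E1 with 13.6 stayed between -2.98 and -2.89. Among the other 9 members, 2 and not 1 were higher with 13.6 under DESeq2, a mean of at least 50 reads, the replicate block and without 13.8 replicate 1, because ATP6V1B2 passed (lowest adjusted p = 0.0385), and 3 and not 5 were lower without control replicate 2, 13.6 replicate 2 or 13.6 replicate 3, so that the count ran from 3 to 5 over the libraries left out. ATP6V1G1 passed with 13.8 under 6 alternatives (adjusted p 0.0199 to 0.228 over all 17). Values near 0 changed sign without a call: ATP6V1A with 13.6 was 0.0012 with no filter, 0.0031 with only the 2 groups compared, and -0.0349 to 0.0268 over the libraries left out (above 0 without control replicate 2 or, at 0.0152, 13.6 replicate 2). Over the libraries left out, ATP6V1F with 13.6 ran from -0.3724 to 0.0474 (above 0 without control replicate 3), and between the DsiRNAs from -0.1297 to 0.2016 (below 0 without 13.8 replicate 1 or, at -0.0161, 13.6 replicate 2). ATP6V1F with 13.8 ran from -0.4314 to -0.0157 over the 17 alternatives. The causes were not tested, beyond fewer samples where a library was left out.

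Correlations between libraries do not settle whether the replicate numbers pair them. Same-numbered libraries of different groups had correlations of -0.179 to 0.187 in their deviations, 3 of 9 above 0.1. Other pairs had -0.248 to 0.187, and 5 of the 9 libraries correlated best with their own number. With the replicate block, ATP6V1B2 with 13.6 (0.1375, adjusted p = 0.0387) and ATP6V1G1 with 13.8 (-0.1871, adjusted p = 0.0199) passed the test. Library totals in place of TMM moved the median of all genes by under 0.1.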

Other observations

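ATP6V1F of the rotor and ATP6V0B of the ring, both widely spread between replicates, ranked the libraries of each group alike. Control replicate 3 was highest for both (325 and 363 CPM), 13.6 replicate 2 was highest for both (229.9 and 304 CPM) and 13.8 replicate 1 was lowest for both (143 and 208 CPM). LAMTOR4 and LAMTOR2 of the lysosomal nutrient dock had the same extremes, highest in control replicate 3 (96.5 and 44.7 CPM) and in 13.6 replicate 2 (84.9 and 41.3 CPM) and lowest in 13.8 replicate 1 (63.2 and 31.5 CPM), so the pattern is not particular to the pump. These genes were chosen after their values were seen.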
